A study of Arabidopsis thaliana with 17 samples.

Results

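GI, BIC1 and BIC2 are 3 genes of light signalling and daily timing, described here array by array in Arabidopsis thaliana rosette leaves of 7 genotypes. They were chosen by locus, AT1G22770 for GI, AT3G52740 for BIC1 and AT3G44450 for BIC2, and were selected on their signals in these same arrays, so their own values are given as a description with no test. They are 3 of the 13286 genes that had a probe set paired with that gene alone. All 3 passed the filter on low signals that the statistical fit used. The annotation gives AT3G52740 and AT3G44450 by locus only, and the names BIC1 and BIC2 are those in use for these loci.

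GIGANTEA (GI) is a large plant-specific protein of the circadian clock. It stabilises the F-box photoreceptor ZEITLUPE and, with FKF1, promotes expression of the flowering regulator CONSTANS, and its transcript is known to cycle over the day. BIC1 and BIC2 (blue-light inhibitors of cryptochromes) are small proteins that bind the blue-light receptors CRY1 and CRY2 and keep them from forming the active dimers, and their transcription is itself raised by light through cryptochromes and phytochromes.

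In the TAIR10.1 annotation GI lies on chromosome 1 from position 8061751 to 8067790, a gene of 6040 bases. BIC1 lies on chromosome 3 from 19546227 to 19547171 (945 bases), and BIC2 on the same chromosome from 16073765 to 16074929 (1165 bases). Each was read by 1 probe set of the array. The array files carry no coordinates.

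The study hybridised 17 ATH1 arrays, each with RNA from 1 pool of 10 plants aged 4 weeks. The first array set held the double mutant psad1-1 stn7-1 (3 arrays), the single mutants psad1-1 (2) and stn7-1 (3) and the wild type Col-0 (3). The second held psae1-3 stn7-1 (2), psae1-3 (2) and the wild type Wassilewskija (2). STN7 is a thylakoid protein kinase that acts on the antenna proteins of photosystem II, in state transitions as well as in the slower acclimation to light quality called the long-term response (LTR). PSAD and PSAE are subunits on the stromal side of photosystem I, where ferredoxin docks, and Arabidopsis has a further gene copy of each. The sources used here do not give the accession in which each mutant allele arose, what is left of the mutated gene, or the hour of harvest.

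A few facts of the whole series bear on the values below. The sets were told apart by the scale of the deposited signals, with a trimmed mean of 100 in 11 arrays and 500 in 6. All signals below are on a scale with a trimmed mean of 100 on every array, and levels set across the sets are descriptions only. Over the tested probe sets, 2 arrays correlated at 0.962 to 0.983 within a genotype and at 0.859 to 0.982 between genotypes of a set. PSAE-1, the gene mutated in psae1-3, read 5.25 to 10.4 in psae1-3 stn7-1 and 23.7 to 63.2 in psae1-3, against 4913 to 5105 in Wassilewskija. STN7 and PSAD-1 had no probe set with a gene name in the tables used here, so those mutants could not be checked this way. The leaf mesophyll markers measured (3 of 12, RCA, PRK and PSAN) read between 2616 and 6703. Their summed signal ran from 9391 (psad1-1) to 12168 (stn7-1) in the first set. In the second set it was higher, from 14946 (Wassilewskija) to 17239 (psae1-3). The shoot meristem marker CLV3 stayed under the background signal on all 17 arrays. The background signal is 8.15, the 95th percentile of 315 readings of control probe sets with no target. Only the controls named TrpnX were taken from both array sets, and the others from the first set alone. In whole leaves, fewer cells of a type and less RNA per cell cannot be told apart.

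GI ranged more widely across the genotypes than either BIC gene. Its signal was 8.26, 27.5 and 23.9 in the 3 psad1-1 stn7-1 arrays and 2.22 and 7.94 in the 2 psad1-1 arrays. It was 76.9, 72.9 and 63.6 in stn7-1, against 55.9, 60.1 and 52.4 in Col-0. Both psad1-1 arrays lay under the background signal, the lowest psad1-1 stn7-1 array just above it, and every other array far above it. In the second set GI read 234 and 205 in psae1-3 stn7-1 and 258 and 254 in psae1-3, against 215 and 283 in Wassilewskija. As a rank among all probe sets of the same array, a measure that the scaling does not touch, GI stood at percentiles 11.6 and 26.7 in psad1-1 and at 56.9 to 61.1 in Col-0, and at 85.5 and 89 in Wassilewskija.

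BIC1 read 116, 207 and 229 in psad1-1 stn7-1 and 31.3 and 36.1 in psad1-1. It read 92.3, 82.9 and 99.6 in stn7-1, against 104, 79.7 and 104 in Col-0. The 2 psad1-1 arrays were the lowest of all 17 and the psad1-1 stn7-1 arrays the highest of their set. In the second set BIC1 was 196 and 188 in psae1-3 stn7-1 and 156 and 185 in psae1-3, against 134 and 139 in Wassilewskija.

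BIC2 read 373, 626 and 739 in psad1-1 stn7-1 and 146 and 105 in psad1-1. It read 425, 411 and 537 in stn7-1, against 587, 567 and 634 in Col-0. Here too psad1-1 was the lowest genotype, with no overlap with any other, but psad1-1 stn7-1 spanned the levels of stn7-1 and Col-0, with replicate A below all of those and replicate C above. In the second set BIC2 was 1035 and 945 in psae1-3 stn7-1 and 822 and 988 in psae1-3, against 820 and 652 in Wassilewskija.

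**Figure D1:**
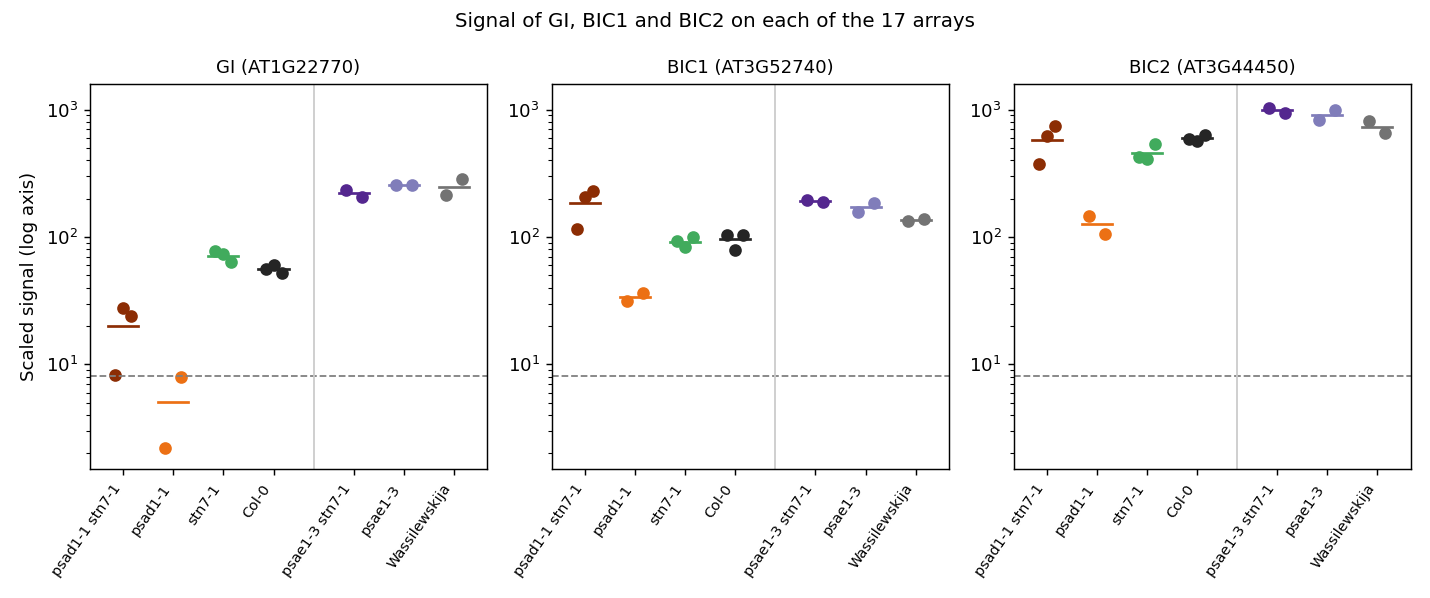
Scaled signal of GI, BIC1 and BIC2 on a log axis, 1 point per array and a bar at the mean of each genotype; the vertical line parts the 2 array sets and the dashed line is the background signal of 8.15. The 2 psad1-1 arrays are the lowest for each gene, with GI at 2.22 and 7.94, and the 3 psad1-1 stn7-1 arrays lie above psad1-1 in each panel.

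Ordered by mean, GI was highest in psae1-3 (256 ± 2.6, SD, n = 2), Wassilewskija (249 ± 47.8, n = 2) and psae1-3 stn7-1 (220 ± 20.3, n = 2). In that order the arrays of psae1-3 and Wassilewskija overlapped, as did those of Wassilewskija and psae1-3 stn7-1. Then came stn7-1 (71.1 ± 6.84, n = 3), Col-0 (56.1 ± 3.9, n = 3), psad1-1 stn7-1 (19.9 ± 10.2, n = 3) and psad1-1 (5.08 ± 4.05, n = 2), none of which overlapped its neighbour. For BIC1 the order was psae1-3 stn7-1 (192 ± 5.34), psad1-1 stn7-1 (184 ± 59.9), psae1-3 (171 ± 20.6), Wassilewskija (136 ± 3.53), Col-0 (95.8 ± 13.9), stn7-1 (91.6 ± 8.34) and psad1-1 (33.7 ± 3.39), with the same numbers of arrays. The first 3 overlapped from neighbour to neighbour, as did Col-0 and stn7-1, and psad1-1 stood apart at the low end. For BIC2 the order was psae1-3 stn7-1 (990 ± 63.7), psae1-3 (905 ± 118), Wassilewskija (736 ± 119), Col-0 (596 ± 34.7), psad1-1 stn7-1 (580 ± 188), stn7-1 (458 ± 69) and psad1-1 (126 ± 29.4). In this order neighbours overlapped between psae1-3 stn7-1 and psae1-3, between Col-0 and psad1-1 stn7-1, and between psad1-1 stn7-1 and stn7-1.

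The first comparison asks what the psad1-1 mutation does in plants with an intact STN7 gene. All 3 genes were lower in psad1-1 than in Col-0, and for each the highest psad1-1 array lay below the lowest Col-0 array. GI differed by -3.74 on the log2 scale (SE 0.45). Since GI was under the background signal in both psad1-1 arrays, the fold is a bound: with readings under the background signal set to it, GI was at least 6.89-fold lower. BIC2 differed by -2.26 (SE 0.23), a mean signal 4.74-fold lower, and BIC1 by -1.50 (SE 0.22), 2.84-fold lower. The psad1-1 arrays all lay below those of Col-0 for 30.7% of the 13648 probe sets in the fit, and since the 3 genes were selected on these readings, nothing is read from their position. The size of the GI difference rests on how low readings are treated and on each psad1-1 array, being -2.82 without psad1-1 replicate A and -4.66 without replicate B. With log2(signal + 16) in place of a floor, GI differed by -1.79 and BIC2 by -2.13, the order of the 2 genes being turned.

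The transcripts of PYK10 and NAI2, markers of the endoplasmic reticulum bodies of roots and seedlings, moved with psad1-1 too. Their summed signal (2 of 2 markers) was 529 to 677 in psad1-1 stn7-1 and 263 to 438 in psad1-1, and 54.3 to 108 in stn7-1 and 35.1 to 77.4 in Col-0. In the second set it was 4.22 to 14.6 in psae1-3 stn7-1 and 3.45 to 6.59 in psae1-3, against 9.77 to 16.3 in Wassilewskija. Their part in the readings of GI, BIC1 and BIC2 was not tested. The guard cell marker FMA (1 of 3) ranged from 34 to 64.5 over all arrays, and none of the 6 flower, 4 seed or 2 phloem markers had a named probe set.

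In the stn7-1 single mutant the differences from Col-0 were at most 0.39 in size on the log2 scale. They were 0.34 for GI (SE 0.40), -0.06 for BIC1 (SE 0.20) and -0.39 for BIC2 (SE 0.20). The arrays of GI did not overlap, all 3 stn7-1 arrays lying above Col-0, which held for 17.7% of probe sets. Those of BIC2 did not overlap either, stn7-1 lying below, as in 19.6% of probe sets, and those of BIC1 overlapped.

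The next comparison, of the psad1-1 stn7-1 double mutant with psad1-1, asks what the stn7-1 mutation does in plants that already carry psad1-1. All 3 genes were higher in the double mutant, in every array. BIC1 was higher by 2.39 (SE 0.22), a mean signal 5.46-fold that of psad1-1. BIC2 was higher by 2.17 (SE 0.23), 4.61-fold. GI was higher by 2.07 (SE 0.45), and by at least 2.44-fold with readings under the background signal set to it. The arrays did not overlap, all in psad1-1 stn7-1 being higher, for 16.4% of all probe sets. The same readings chose the 3 genes, and no support is taken from it.

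GI and the BIC genes differed in how far this last difference depended on the processing. For GI the difference was 1.11 when readings under the background signal were set to it, 1.15 without psad1-1 replicate A and 2.99 without psad1-1 replicate B. For BIC1 it was 2.20 to 2.69 without any 1 array. The replicates of the double mutant themselves spread widely: replicate A was the lowest of the 3 for all 3 genes, and the highest array was 3.33 times the lowest for GI, 1.97 times for BIC1 and 1.98 times for BIC2.

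Against Col-0 the double mutant separated the 3 genes. GI was lower in psad1-1 stn7-1 by -1.67 (SE 0.40), a mean 2.82-fold lower. BIC1 was higher by 0.89 (SE 0.20), a mean 1.92-fold that of Col-0. BIC2 differed by -0.10 (SE 0.20), and its arrays overlapped. The arrays did not overlap for GI, lower as in 27.3% of all probe sets, and for BIC1, higher as in 24.6%. Against stn7-1 the picture was alike: GI differed by -2.01 (SE 0.40), BIC1 by 0.95 (SE 0.20) and BIC2 by 0.29 (SE 0.20). Again GI and BIC1 did not overlap, lower in 22.5% and higher in 21.1% of all probe sets, and BIC2 did. Without psad1-1 stn7-1 replicate A the BIC2 difference was 0.58. These comparisons share the double-mutant arrays.

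**Figure D2:**
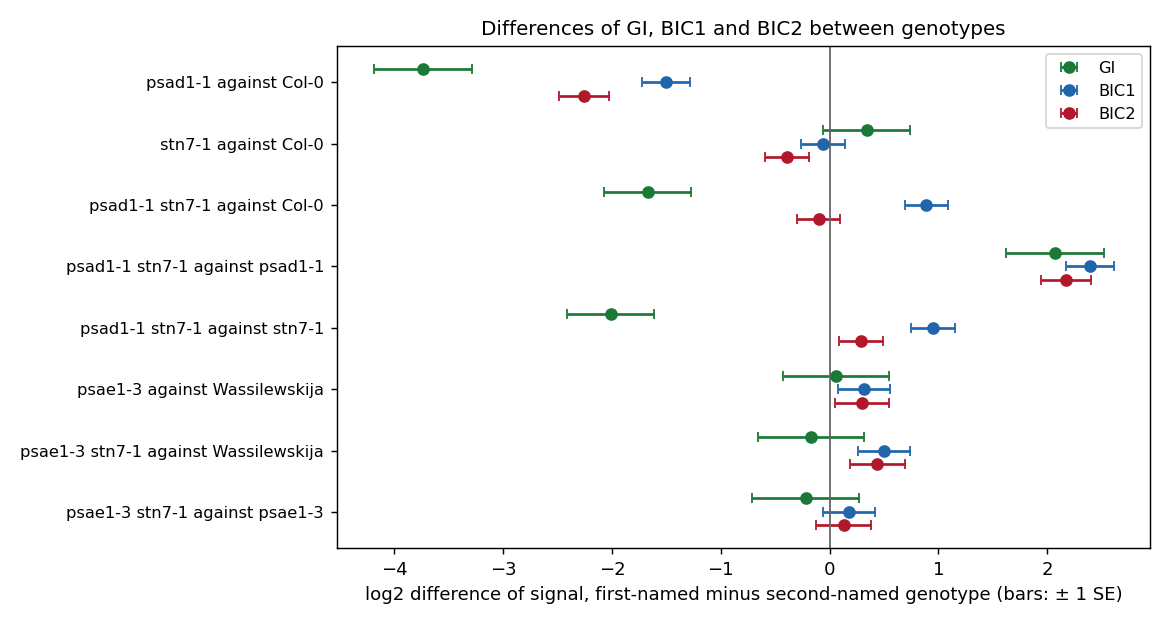
Log2 difference of signal for GI, BIC1 and BIC2 in 8 comparisons, the first-named genotype minus the second, with bars of 1 SE. The 3 genes lie left of 0 in psad1-1 against Col-0 and right of 0 in psad1-1 stn7-1 against psad1-1, while in the psae1-3 comparisons each lies between -0.22 and 0.50.

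The second photosystem I mutant, psae1-3, did not show the low levels seen in psad1-1. Against Wassilewskija, psae1-3 differed by 0.06 for GI (SE 0.49), 0.32 for BIC1 (SE 0.24) and 0.30 for BIC2 (SE 0.25). The arrays of BIC1 and BIC2 lay above the wild type without overlap, as in 20.3% of all probe sets, with 822 in the lower psae1-3 array and 820 in the higher Wassilewskija array for BIC2. The double mutant psae1-3 stn7-1 differed from Wassilewskija by -0.17 for GI (SE 0.49), 0.50 for BIC1 (SE 0.24) and 0.44 for BIC2 (SE 0.25). Again the 2 BIC genes lay above the wild type in every array, as 24.7% of probe sets did.

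Against psae1-3, psae1-3 stn7-1 differed by -0.22 for GI (SE 0.49), 0.18 for BIC1 (SE 0.24) and 0.13 for BIC2 (SE 0.25). GI was lower in both arrays, as in 25.3% of all probe sets, and BIC1 higher in both, as in 29.1%. BIC2 overlapped. With 2 arrays a genotype, the number of arrays limits the precision of all 3 comparisons. The fit also shares 1 spread per probe set over all genotypes. The SE of GI therefore carries the spread of psad1-1 and psad1-1 stn7-1, here and in stn7-1 against Col-0. The highest GI array was 3.58 times the lowest in psad1-1, 1.14 times in psae1-3 stn7-1 and 1.01 times in psae1-3.

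The differences between these effects were also taken from the fit, again with no test for the 3 genes. The psad1-1 by stn7-1 interaction, that is the psad1-1 stn7-1 minus psad1-1 difference less the stn7-1 minus Col-0 difference, was 2.56 for BIC2 (SE 0.30), 2.45 for BIC1 (SE 0.30) and 1.73 for GI (SE 0.60). For GI it ranged from 0.47 to 2.65 over the alternatives run. The effect of psad1-1 less that of psae1-3, each taken within its array set, was -3.79 for GI (SE 0.67), -2.57 for BIC2 (SE 0.33) and -1.82 for BIC1 (SE 0.33). The effect of stn7-1 in psad1-1 less that in psae1-3 was 2.29 for GI (SE 0.67), 2.21 for BIC1 (SE 0.33) and 2.03 for BIC2 (SE 0.33). For GI this last value ranged from 0.95 to 3.21 over the alternatives run, and was 1.37 without psad1-1 replicate A. Array set and accession cannot be told apart from the mutant in the differences between psad1-1 and psae1-3.

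The 2 wild types were not alike in GI. GI in Wassilewskija was 4.43 times its level in Col-0 on the common scale, BIC1 1.42 times and BIC2 1.23 times. Each wild type filled a set of its own, so the accession cannot be told apart from the array set in these ratios.

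Across arrays the 2 BIC genes went together more closely than either did with GI. Over the 11 arrays of the first set the Pearson correlation of log2 signals was 0.873 for BIC1 with BIC2, 0.733 for GI with BIC2 and 0.496 for GI with BIC1. Over the 6 arrays of the second set the correlations were 0.862, -0.538 and -0.277 in the same order. Among the 7353 other tested probe sets with 1 gene, BIC2 ranked 12th in likeness to BIC1, and BIC1 28th in likeness to BIC2. These arrays share genotypes, and the low psad1-1 arrays weigh on each of the first-set values. Since GI, BIC1 and BIC2 were selected on their signals in these same arrays, the correlations and ranks are descriptions only. No support for a link between the genes is taken from them.

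**Figure D3:**
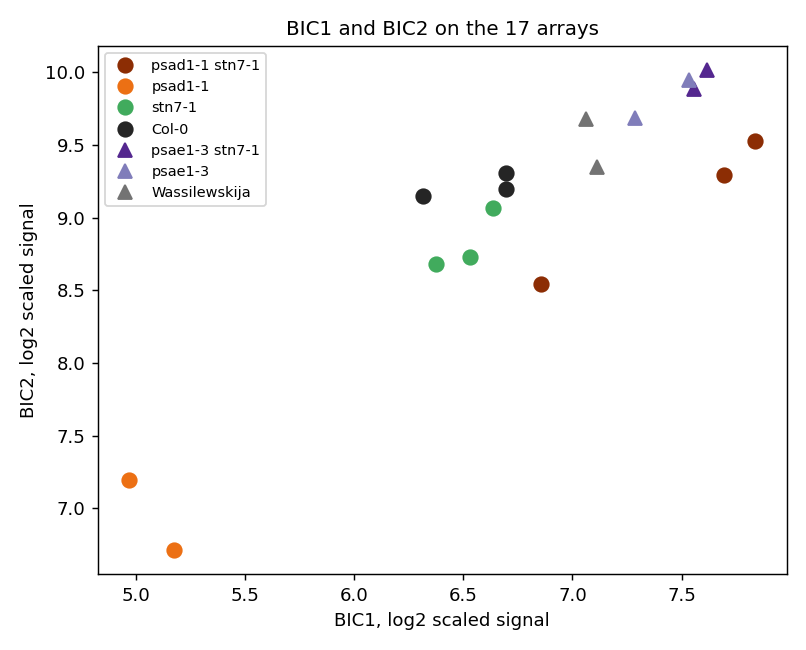
Log2 scaled signal of BIC1 (x axis) against BIC2 (y axis) on the 17 arrays, circles for the first array set and triangles for the second, coloured by genotype. The 2 psad1-1 arrays stand apart at the lower left, and the psad1-1 stn7-1 arrays lie to the right of stn7-1 and Col-0.

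The genes whose signal followed each of the 3 most closely over the 11 first-set arrays were other genes for each. For GI the highest correlation was that of TRY (0.971), the R3-type MYB protein TRIPTYCHON known from trichome patterning, followed by AT1G03250 (0.959), AT5G45840 (0.955), AT5G60840 (0.949) and AT5G16140 (0.946). Over the other 6 arrays those 5 correlations were 0.146, 0.399, 0.517, -0.493 and 0.199. The most opposite were AT4G05070 (-0.971), AT1G31850 (-0.971) and AT5G16110 (-0.968).

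For BIC1 the closest were AT5G55570 (0.946), AT5G23920 (0.916), AT3G45210 (0.910), AT2G27420 (0.907) and AT1G23220 (0.906). Of these, AT2G27420 (0.862) and AT5G55570 (0.821) also had high values over the other 6 arrays. The most opposite to BIC1 were AT2G03750 (-0.925), AT5G35160 (-0.922) and SEC15A (-0.913), a subunit of the exocyst. For BIC2 the closest were AT3G60520 (0.966), AT3G56260 (0.950), AT1G66540 (0.949), AT3G16350 (0.935) and CRR42 (0.930), an assembly factor of the chloroplast NDH complex, whose correlation over the other 6 arrays was 0.842. The most opposite to BIC2 were AT4G13730 (-0.941), AT1G67580 (-0.938) and AT5G26740 (-0.929). With 11 arrays in 4 genotypes these are descriptions of likeness across the same arrays.

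Other genes of light signalling and timing came from 5 lists. Only part of each list could be read: 5 of 42 circadian clock genes were tested, 2 of 26 of photoperiodic flowering, 3 of 22 photoreceptors and their partners (4 probe sets), 2 of 33 regulators around COP1, HY5 and the B-box proteins, and 1 of 16 phytochrome-interacting factors and shade growth genes. Among the genes not analysed here are CRY1, CRY2, HY5, CO, CCA1 and LHY. Unlike the 3 genes, these were tested, with limma at a Benjamini-Hochberg adjusted p of 0.05. In psad1-1 against Col-0, 5 of the 14 probe sets rose and 3 fell (57.1%, beside 40.5% of all probe sets), with a median log2 difference of -0.02, as for all probe sets (-0.02). In psad1-1 stn7-1 against Col-0, 3 rose and 2 fell (35.7%, beside 40.8%), with a median of -0.06 against -0.02 for all. In psad1-1 stn7-1 against psad1-1, 1 of 14 rose (7.14%, beside 2.09%) and the median was -0.11, against -0.01 for all. Against stn7-1, 3 rose and 1 fell in psad1-1 stn7-1 (28.6%, beside 28.0%), and in stn7-1 against Col-0, 2 fell (14.3%, beside 18.9%). In psae1-3 stn7-1, 1 rose and 1 fell against Wassilewskija (14.3%, beside 16.2%) and 1 rose against psae1-3 (7.14%, beside 12.3%). In psae1-3 against Wassilewskija limma called 0 of 14, beside 12.3% of all, with 4 at an unadjusted p under 0.05. The psad1-1 by stn7-1 interaction was past the threshold for 1 of 14 (7.14%, beside 11.8%), the psad1-1 effect less that of psae1-3 for 4 (28.6%, beside 19.4%), and the difference of the stn7-1 effects for 1 (7.14%, beside 7.94%).

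HYH, the bZIP factor HY5 HOMOLOG that acts with HY5 to promote light responses, was higher in psad1-1 and psad1-1 stn7-1 than in Col-0. Both BIC genes were lower than in Col-0 in psad1-1. In psad1-1 stn7-1 BIC1 was higher than in Col-0 and the BIC2 arrays overlapped. The signal of HYH was 384, 603 and 476 in psad1-1 stn7-1 and 284 and 260 in psad1-1. It was 101, 98.9 and 84.4 in stn7-1 and 94.4, 95.1 and 114 in Col-0. The psad1-1 and psad1-1 stn7-1 arrays lay above all others. It rose by 1.43 in psad1-1 against Col-0 (SE 0.20, adjusted p = 4.17e-05, limma) and by 2.25 in psad1-1 stn7-1 against Col-0 (SE 0.18, adjusted p = 1.15e-07). The double mutant was above psad1-1 by 0.82 (SE 0.20, adjusted p = 0.0486), a call kept under 6 of 16 alternatives. It was lost without psad1-1 replicate A (0.087), without psad1-1 replicate B (0.41), and without psad1-1 stn7-1 replicate B (0.171) or C (0.135), the values being adjusted p. HYH also rose in psae1-3 stn7-1 against Wassilewskija, by 0.98 (SE 0.22, adjusted p = 0.00644), a call lost without psae1-3 stn7-1 replicate A (adjusted p = 0.0953) or Wassilewskija replicate A (0.0861). CUL4, the cullin of the ubiquitin ligases that COP1 joins, rose by 0.27 in psad1-1 against Col-0 (SE 0.10, adjusted p = 0.0419), a call kept under 6 of 16 alternatives and lost without either psad1-1 array (0.123 without A, 0.131 without B) or any Col-0 array (0.0502 to 0.103).

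Both tested genes of photoperiodic flowering rose with psad1-1. SNZ (SCHNARCHZAPFEN), an AP2-type repressor of flowering, read 95.3, 104 and 110 in psad1-1 stn7-1 and 94.3 and 86.7 in psad1-1, against 32.3, 36 and 57.7 in Col-0. It rose by 1.15 in psad1-1 (SE 0.19, adjusted p = 0.000145) and by 1.34 in psad1-1 stn7-1 (SE 0.17, adjusted p = 1.04e-05). In stn7-1, at 29.9, 28.9 and 27.3, it fell by 0.50 (SE 0.17, adjusted p = 0.0454), a call kept under 4 of 17 alternatives and lost when any array of stn7-1 or either Col-0 replicate B or C was left out (adjusted p 0.0549 to 0.21). AT1G69570 read 214, 137 and 120 in psad1-1 stn7-1 and 240 and 204 in psad1-1, against 60.4, 51.3 and 62.4 in Col-0. It rose by 1.94 in psad1-1 (SE 0.22, adjusted p = 5.82e-06) and by 1.39 in psad1-1 stn7-1 (SE 0.20, adjusted p = 4.34e-05). In psae1-3 stn7-1 it read 39.2 and 33.3, against 16.9 and 21.5 in psae1-3, higher by 0.92 (SE 0.25, adjusted p = 0.0208). That call did not hold without psae1-3 stn7-1 replicate A or psae1-3 replicate A. Wassilewskija read 20 and 27.4, below Col-0, and AT1G69570 and STN7 (AT1G68830) lie on the same chromosome. Whether DNA of another accession came in with stn7-1 was not tested, and it cannot be told apart from the mutation here.

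IAA29, an auxin response repressor and known target of phytochrome-interacting factors, fell in all 3 mutants of the first set. It read 10.9, 10.2 and 8.79 in psad1-1 stn7-1, 15.2 and 11.9 in psad1-1 and 21.9, 11.9 and 22 in stn7-1, against 43.1, 29.8 and 37.6 in Col-0. The changes against Col-0 were -1.87 in psad1-1 stn7-1 (SE 0.26, adjusted p = 2.67e-05), -1.44 in psad1-1 (SE 0.29, adjusted p = 0.000851) and -1.02 in stn7-1 (SE 0.26, adjusted p = 0.0121). That in stn7-1 was lost without stn7-1 replicate B (adjusted p = 0.0669). Its readings in psad1-1 stn7-1 lay just above the background signal.

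**Figure D4:**
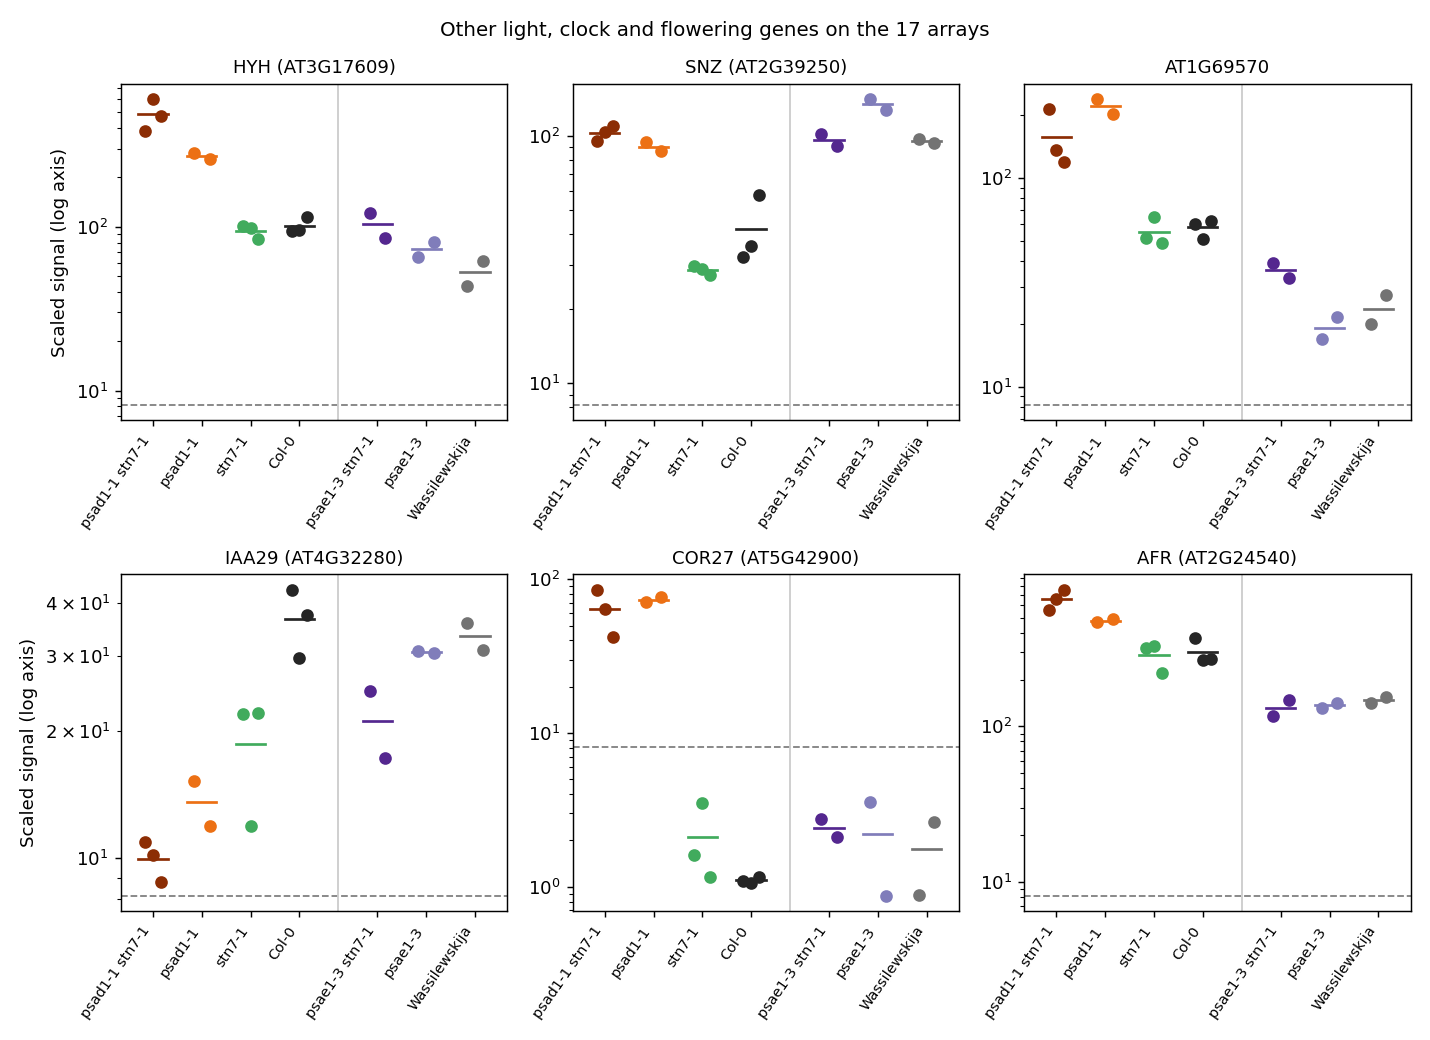
Scaled signal on a log axis of HYH, SNZ, AT1G69570, IAA29, COR27 and AFR, 1 point per array with a bar at the mean of each genotype; the dashed line is the background signal of 8.15. COR27 is above it only in psad1-1 stn7-1 and psad1-1, and IAA29 is lowest in psad1-1 stn7-1.

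Of the 5 tested clock genes, 2 passed in psad1-1 against Col-0. XCT (XAP5 CIRCADIAN TIMEKEEPER), a nuclear protein that affects clock period, fell by 0.54 (SE 0.19, adjusted p = 0.0345) and AT5G52660 fell by 0.55 (SE 0.21, adjusted p = 0.0491). XCT kept the call under 8 of 16 alternatives and lost it without either psad1-1 array (0.102 without A, 0.133 without B) or Col-0 replicate A (0.142) or C (0.0913). AT5G52660 kept it under 4 of 16 and lost it without psad1-1 replicate A (0.387) or any Col-0 array (0.0706 to 0.114). TIC and FIO1, which also affect the clock's period, and AT4G01280 passed in none of the 8 comparisons of genotypes, with 0, 0 and 1 of those 8 at an unadjusted p under 0.05.

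Of the photoreceptor list, AT3G13670 rose by 0.56 in psad1-1 against Col-0 (SE 0.13, adjusted p = 0.00296), a call lost without psad1-1 replicate B (0.0734). AT5G18190 passed in none of the 8 comparisons, with 1 at an unadjusted p under 0.05. The 2 probe sets of AT2G25760 did not pass in the same comparisons: one fell by 0.69 in psae1-3 stn7-1 against Wassilewskija (SE 0.18, adjusted p = 0.0145), and the other by 0.33 in psad1-1 stn7-1 against Col-0 (SE 0.11, adjusted p = 0.0292). The first call was lost without any 1 of its 4 arrays (adjusted p 0.0519 to 0.0861). The second was lost with median scaling (0.142), with quantile normalization (0.0732 over all arrays, 0.077 within sets) and without Col-0 replicate A (0.0783) or B (0.0752) or psad1-1 stn7-1 replicate B (0.0812) or C (0.0778).

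Some list genes lay below the filter on low signals, and were fitted only without it. COR27, a cold-regulated gene of the clock list, read 85.6, 64.3 and 42.4 in psad1-1 stn7-1 and 71.3 and 76.2 in psad1-1, and was under the background signal on the other 12 arrays. With those readings set to the background signal it was at least 7.86-fold higher in psad1-1 stn7-1 and at least 9.05-fold higher in psad1-1 than in Col-0. In a fit without the filter the adjusted p was 5.62e-06 for psad1-1 against Col-0 and 2.78e-06 for psad1-1 stn7-1 against Col-0. SMZ (SCHLAFMÜTZE), like SNZ an AP2-type repressor of flowering, read 35, 50.2 and 59.4 in psad1-1 stn7-1 and 19.6 and 12.7 in psad1-1, against 7.82, 18.1 and 18.7 in Col-0. Without the filter it rose by 1.77 in psad1-1 stn7-1 against Col-0 (adjusted p = 0.00368) and differed by 1.58 from psad1-1 (adjusted p = 0.113). It rose by 2.13 against stn7-1 (adjusted p = 0.00181).

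FHL, a FHY1-like protein that helps phytochrome A into the nucleus, read 24, 20.6 and 9.41 in psad1-1 stn7-1 and 14 and 10.6 in psad1-1, against 29.4, 29.5 and 45.9 in Col-0. Without the filter it fell by 1.49 in psad1-1 (adjusted p = 0.0128) and by 1.03 in psad1-1 stn7-1 (adjusted p = 0.0438). In stn7-1 FHL read 17, 13.2 and 15.8, also below every Col-0 array, a difference of -1.16 (adjusted p = 0.053, limma). FD, the bZIP partner of the flowering signal FT, read 19, 18.5 and 17.8 in psad1-1 stn7-1 and 16.7 and 16.4 in psad1-1, against 31.7, 27.2 and 36.3 in Col-0. It fell by 0.93 in psad1-1 (adjusted p = 0.0345) and by 0.77 in psad1-1 stn7-1 (adjusted p = 0.0466) against Col-0. In stn7-1 FD read 21.7, 19.6 and 21.1, also below every Col-0 array, a difference of -0.6 (adjusted p = 0.186, limma). In the second set FD read 9.85 and 9.92 in psae1-3 stn7-1 and 5.11 and 2.32 in psae1-3, against 10.8 and 7.82 in Wassilewskija. Both psae1-3 readings were under the background signal, so FD was at least 1.21-fold higher in psae1-3 stn7-1 than in psae1-3 (adjusted p = 0.0116). For psae1-3 against Wassilewskija, the 7.82 of Wassilewskija replicate B was under the background signal too. No fold is given there, and the call of a fall (adjusted p = 0.0213) rests on readings of which only 10.8 was above it. AT4G33980 was under the background signal on all arrays.

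A further 6 genes with light or clock names in the annotation were looked up after the signals were seen, and 4 of them were tested. AFR (ATTENUATED FAR-RED RESPONSE), an F-box protein of phytochrome A signalling, read 560, 659 and 755 in psad1-1 stn7-1 and 467 and 487 in psad1-1, and 318, 328 and 219 in stn7-1 and 368, 265 and 272 in Col-0. It rose by 1.13 in psad1-1 stn7-1 (SE 0.17, adjusted p = 5.32e-05) and by 0.68 in psad1-1 (SE 0.19, adjusted p = 0.00843) against Col-0. SHB1, below the filter, read 2.2 and 1.79 in psad1-1, against 7.7, 9.77 and 11.6 in Col-0. Without the filter the adjusted p was 0.0366, and only 2 of those 5 readings were above the background signal. The other 3 tested (LIP1, AT1G72390 and AT4G14480) passed in none of the 8 comparisons, with 1, 1 and 0 at an unadjusted p under 0.05.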

How the data were processed

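Signals are intensities on a linear scale that the authors deposited, made with GCOS and MAS5 per the submitters' processing notes, which give no versions here. Each array was scaled to a 2% trimmed mean of 100, readings under the 10th percentile (1.57) were set to it, and log2 was taken. Of 22810 probe sets, 64 controls and the 40% with the lowest mean were left out, leaving 13648. One mean per genotype was fitted over 17 arrays with limma 3.58.1 in R 4.3.3 (variance trend; 10 residual and 6.04 prior degrees of freedom), two-sided, with Benjamini-Hochberg adjustment at 0.05 over all probe sets. SD is between arrays, SE that of the moderated fit. Pools of a genotype are called biological replicates by the submitters.

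The 3 genes, the 5 lists and the tests were chosen with earlier results of these data known. Named list genes had a probe set paired with 1 gene, up to 8 per list; likeness names the 5 highest and 3 lowest Pearson correlations. Names came from an annotation table that pairs 13513 of its 14016 listed probe sets with 1 gene. The fit was tested on simulated data, 50 changed probe sets per size. For psad1-1 against Col-0 it found 21 of those changed 1.5-fold, 35 at 2-fold, 49 at 4-fold and 49 at 8-fold. There were 11 false calls among the unchanged part of the 13648 probe sets. For psae1-3 against Wassilewskija it found 14, 33, 47 and 47, with 5 false calls. The simulated noise was independent, and far fewer probe sets were changed than the 40.5% called in psad1-1 against Col-0. These rates therefore do not measure recovery in the real data. Replicate letters showed no clear pairing of the samples, deviations correlating at -0.224 to 0.272. With 2 or 3 arrays a genotype this cannot exclude pairing. Alternatives were other scalings, floors, filters and model settings, and leaving out each array.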

Additional observations from a re-analysis of the deposited data

Results flagged for a closer look

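For GI every psad1-1 stn7-1 array lay above psad1-1, as for 16.4% of all probe sets, and every psae1-3 stn7-1 array lay below psae1-3. The difference of these stn7-1 effects was 2.29 on the log2 scale, given as a description and not tested, since GI was selected on these readings. The psad1-1 side is narrow, the nearest arrays being 8.26 and 7.94, on either side of the background signal of 8.15. On the psae1-3 side the difference was -0.22 (SE 0.49), and 25.3% of all probe sets were lower there without overlap. For the BIC genes every psad1-1 array lay below Col-0, as for 30.7% of all probe sets, and every psae1-3 array above Wassilewskija. The difference of effects was -2.57 for BIC2 and -1.82 for BIC1, not tested for the same reason. The psae1-3 differences were 0.30 for BIC2 (SE 0.25) and 0.32 for BIC1 (SE 0.24), 20.3% of all probe sets were higher there without overlap, and for BIC2 the nearest arrays read 822 in psae1-3 and 820 in Wassilewskija. BIC2 was higher in every psad1-1 stn7-1 array than in psad1-1, as were 16.4% of all probe sets. It was lower in every stn7-1 array than in Col-0, as were 19.6%. The interaction of 2.56 was likewise not tested, and the stn7-1 difference from Col-0 was -0.39 (SE 0.20). Array set and accession cannot be told apart from the mutant in the first 2 of these patterns.

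Among the list genes, where the difference itself was tested with limma, the effect of psad1-1 exceeded that of psae1-3 by 2.23 for AT1G69570 (adjusted p = 0.000258), 0.96 for HYH (adjusted p = 0.0353) and 0.52 for CUL4 (adjusted p = 0.0208), and was below it by -1.32 for IAA29 (adjusted p = 0.0393). Over all alternatives the highest adjusted p was 0.0022 for AT1G69570. It was 0.162 for HYH (without Wassilewskija replicate B), 0.0704 for CUL4 (without psae1-3 replicate A) and 0.139 for IAA29 (without psad1-1 replicate B). HYH also lost the call with quantile normalization within sets (0.0667), no filter (0.0792) or the replicate block (0.0647). IAA29 lost it with quantile normalization within sets (0.0527) or no filter (0.0715), and CUL4 with median scaling (0.056). For HYH, CUL4 and IAA29 the call was also lost without other single arrays. The effect of stn7-1 in psad1-1 differed from that in psae1-3 by -1.46 for AT1G69570 (adjusted p = 0.0135). That adjusted p was 0.0679 without psae1-3 stn7-1 replicate A and 0.0648 without psae1-3 replicate A. In all these differences between psad1-1 and psae1-3, array set and accession cannot be told apart from the mutant. For AT1G69570, DNA near STN7 that may have come in with stn7-1 was not tested either. The psad1-1 by stn7-1 interaction was 0.91 for HYH (adjusted p = 0.0403, limma). That call was lost with median scaling (0.0611), no filter (0.093), no variance trend (0.0566) or the replicate block (0.0754). It was also lost without any stn7-1 or psad1-1 array, Col-0 replicate B or C, or psad1-1 stn7-1 replicate B or C (0.0542 to 0.156).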

How the results depend on the processing

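GI, BIC1 and BIC2 stayed below 0 in psad1-1 against Col-0 and above 0 in psad1-1 stn7-1 against psad1-1 under every alternative run. With log2(signal + 16) in place of a floor, GI differed by -1.79 in psad1-1 and -1.05 in psad1-1 stn7-1 against Col-0, and by 0.74 and -1.32 in psad1-1 stn7-1 against psad1-1 and stn7-1, and BIC1 by -1.16 in psad1-1 against Col-0 and 1.96 in psad1-1 stn7-1 against psad1-1. With the floor at the background signal, GI differed by -2.78 in psad1-1 against Col-0 and by 1.11 in psad1-1 stn7-1 against psad1-1. Leaving out 1 array gave GI -4.66 to -2.82 and 1.15 to 2.99 in those comparisons, and gave BIC1 2.20 to 2.69 in psad1-1 stn7-1 against psad1-1, 0.70 to 1.20 against Col-0 and 0.76 to 1.25 against stn7-1.

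The number of probe sets called in psad1-1 stn7-1 against psad1-1, 285, was 112 with no filter, 177 with no variance trend, 120 with only the arrays of the first set, and 37 with the replicate letter as a block, the letters being no shown pairing; the block moved no other such count over 1.5-fold. It ranged from 19 to 366 without 1 array (19 without psad1-1 replicate B, 35 and 36 without psad1-1 stn7-1 replicates B and C). Without 1 array the counts ranged from 1326 to 2685 for stn7-1 (2580 with all arrays; lowest when Col-0 replicate B was out, 1451 when stn7-1 replicate B was), 411 to 1837 for the interaction (1610; lowest without psad1-1 replicate B, 955 without psad1-1 stn7-1 replicate B), and 548 to 1245 for psae1-3 (1681; lowest without Wassilewskija replicate B, 1032 and 887 without psae1-3 replicates A and B). They ranged from 1274 to 1547 for psae1-3 stn7-1 against Wassilewskija (2214; lowest without psae1-3 stn7-1 replicate A, 1464 without B, 1288 without Wassilewskija replicate B), 769 to 1335 against psae1-3 (1677; lowest without psae1-3 stn7-1 replicate A, 969 without psae1-3 replicate A), and 492 to 1112 for the difference of stn7-1 effects (1084; lowest without psae1-3 stn7-1 replicate A, 508 without psad1-1 replicate B, 619 without psae1-3 replicate A).

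Of the list probe sets, 8 were called in psad1-1 against Col-0, 5 under either quantile normalization and 5 to 6 without 1 array. In stn7-1 against Col-0, 2 were called, 1 under the other scalings, log2(signal + 16), no filter, no trend or only the first set, and 0 to 2 without 1 array. In psad1-1 stn7-1 against Col-0, 5 were called and 9 with no filter or with 20% left out. Against psad1-1, 1 was called, 0 with median scaling, no filter, 20% left out, no trend, only the first set or the replicate block, and 0 to 1 without 1 array. In psae1-3 against Wassilewskija 0 were called, and 1 with median scaling, no filter or 20% left out. In psae1-3 stn7-1, 2 were called against Wassilewskija, and fewer without any 1 array. Against psae1-3, 1 was called, a call that did not hold without every array. That count was 0 under quantile normalization over all arrays, log2(signal + 16) or only the second set, and 3 with 20% left out. The interaction had 1, with 0 under no filter, no trend or the replicate block, 2 with 20% left out and 0 to 2 without 1 array; the psad1-1 and psae1-3 effects had 4, with 2 under quantile normalization within sets and 1 to 4 without 1 array; and the difference of stn7-1 effects had 1, with 0 to 1.

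Scaling to the array median moved the share of calls that were higher to 63.6% in psad1-1 against Col-0 (47.8% otherwise), 71.7% in stn7-1 (51.5%), 58.0% (47.1%) and 43.4% (58.9%) in psad1-1 stn7-1 against Col-0 and psad1-1, 77.5% in psae1-3 (44.0%), 41.6% in psae1-3 stn7-1 against psae1-3 (60.9%), 24.9% in the interaction (49.1%) and 49.6% in the difference of stn7-1 effects (39.5%). Quantile normalization gave 55.4% over all arrays and 54.5% within sets in psae1-3. The median of all probe sets moved from -0.02 to 0.12 in psad1-1 against Col-0, from -0.11 to 0.06 in psae1-3 and from 0.01 to -0.14 in the interaction under median scaling. The causes were not tested. With 2 or 3 arrays a genotype, readings of GI in psad1-1 lie under the background signal, so only bounds on its fold are measured.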
